A study of Mus musculus with 4 samples.

Results

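The myogenic regulatory factors and the Pax factors of muscle were followed as a group of 6 genes, Myod1, Myf5, Myog, Myf6, Pax3 and Pax7. They were taken by gene symbol, and the group and the gene lists below were chosen with earlier results of these data known. All 6 were found, 1 row each, among the 55573 genes of the deposited table, of which 21900 are protein-coding. The table holds ribosome-protected signal from primary mouse myoblasts, which are precursors of muscle fibres, cultured from a digest of hind-limb muscle of mice aged 3 weeks. All cells were grown with FGF, were labelled as proliferating on day 2 and were treated with cycloheximide, which stalls ribosomes, before lysis and digestion with RNase I. Titles name the libraries polysome libraries, whereas their protocol describes ribosome footprints, and matched RNA levels were not analysed here, so the signal holds both mRNA amount and translation. There were 2 wild-type (WT) libraries and 2 libraries labelled as a knockout (KO) of eIF5A, a translation factor that carries a residue made from spermidine. With such profiling the study asked whether the factor serves translation at large or that of selected mRNAs, and then focused on Myod. The text of the study describes a tamoxifen-induced knockout with WT littermates, and its knockout mice were Pax7-CreERT2/+;eIF5A f/f. Cre is thus driven by the locus of Pax7, itself a member of the group. By this design, cells of the digest that never express Pax7 should keep Eif5a, which was not tested here. For its animal experiments the study gives both Pax7-CreERT2/+ mice and Pax7+/+;eIF5A f/f mice as WT controls, and the labels do not say whether the WT cells here carried Cre or the floxed allele. The number of animals behind a library is not stated, so the spread between replicates may be technical.

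Pax3 and Pax7 are paired-domain transcription factors that mark muscle progenitors and, for Pax7, the satellite cells of adult muscle. The other four are basic helix-loop-helix factors that pair with E proteins and bind E-boxes, the sequence CANNTG. Myf5 and MyoD commit a cell to the muscle lineage, myogenin (Myog) drives terminal differentiation, and Myf6 (MRF4) is found mostly late, in muscle fibres. The relative levels of the 6 genes are therefore commonly read as a stage on the way from stem cell to fibre, and the libraries were compared in that order.

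Values are RPKM, that is reads scaled by gene length and by a library size that the authors set. Whole reads could be recovered from them, and a library held between 642429 and 704006 reads, of which 41.5% and 33.9% lay on protein-coding genes in WT. This share was 65.4% and 59.2% in the libraries labelled KO. For a gene as short as Myog, 1 read was worth between 0.737 and 1.42 RPKM. Intervals given for a single library are exact Poisson or exact (Clopper-Pearson) binomial 95% intervals, and cover counting error only, since PCR copies are not independent molecules. Eif5a was not lower in the libraries labelled KO, with 34.9 and 65.2 RPKM in WT against 60.3 and 59.4 RPKM. Because the targeted gene does not show the deletion, all directions given compare libraries by their labels.

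The cells carried the defining genes of myoblasts, but not these alone. Myod1 was the most strongly read of the 6 genes in every library. Per gene length, it ranked 66 and 140 among protein-coding genes in WT against 445 and 238 with the label KO. Desmin (Des), the muscle intermediate filament, averaged 43.0 RPKM in WT and 17.6 RPKM with the label KO. Itga7 and Cdh15, further markers of myogenic cells, had overlapping groups. Itga7 had 22.8 and 12.1 RPKM in WT against 29.7 and 8.87 RPKM, and Cdh15 7.14 and 1.96 RPKM against 1.36 and 2.67 RPKM. The 6 listed markers of myogenic cells, Myod1 among them, summed to 231 and 179 RPKM in WT against 95.4 and 114 RPKM. Markers of other cells were read as well, such as the fibroblast proteoglycan gene Dcn (239.5 and 126 RPKM in WT against 459.9 and 171 RPKM, thus highest in KO library 1). The endothelial cadherin gene Cdh5 averaged 67.3 RPKM in WT and 77.6 RPKM with the label KO. The summed RPKM of 14 fibroblast and mesenchymal markers was 666 and 456 in WT against 1077 and 513, that of 10 endothelial markers 174 and 188 against 226 and 199, that of 10 immune markers 48.2 and 76.5 against 68.0 and 51.4, and that of 11 pericyte, smooth muscle and Schwann cell markers 191 and 141 against 127 and 132. No library therefore stood apart in all of these lists, and KO library 1 was highest for fibroblast markers. In such bulk samples, fewer myogenic cells and less signal per cell cannot be told apart, and the part that other cell types play in the values below was not tested.

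**Figure D1:**
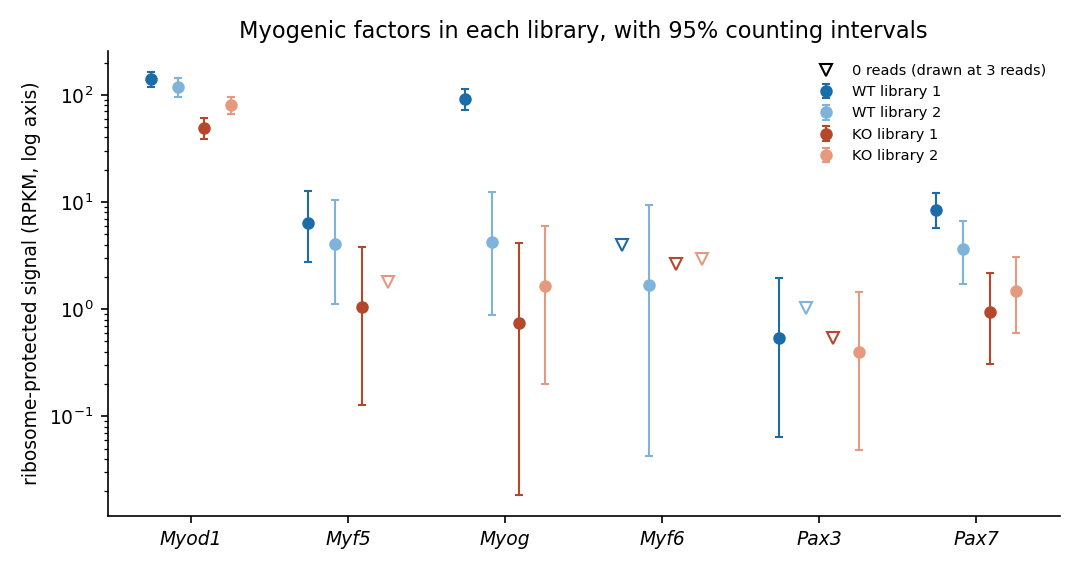
Ribosome-protected signal (RPKM, log axis) of the 6 factors in each of the 4 libraries, with 95% Poisson counting intervals; an open triangle marks a library with 0 reads and is drawn at the value of 3 reads. Myod1 lies far above the other factors except in WT library 1, where Myog reached 91.0 RPKM.

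Commitment factors came first. Myod1 (ENSMUSG00000009471; GRCm38 chromosome 7, 46376474 to 46379099, plus strand) has 3 exons and a coding sequence of 954 bases between 46376673 and 46378391, which codes for 318 residues. It had 139.9 RPKM (95% interval 119 to 164) in WT library 1 and 117 RPKM (95.9 to 142) in WT library 2. In the libraries labelled KO it had 48.6 RPKM (38.6 to 60.3) and 79.8 RPKM (66.2 to 95.5). The 2 groups did not overlap, with KO library 1 lowest and WT library 1 highest. Per 100000 protein-coding reads, a measure that leaves out reads on other gene types, Myod1 took 58.3 and 47.3 in WT, against 17.8 and 31.2 with the label KO, again without overlap. Per 100000 reads of any kind, it took 24.2 and 16.0 in WT against 11.6 and 18.5, so that KO library 2 lay above WT library 2 and the groups overlapped. The log2 fold change was -1.03 (95% interval -2.22 to 0.16) with an adjusted p of 0.676 by limma over all 11363 tested genes, so the difference did not pass.

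Myf5 (ENSMUSG00000000435; chromosome 10, 107482908 to 107486134, minus strand, 3 exons, coding sequence of 765 bases) was far weaker than its sister gene. It had 6.37 RPKM (2.75 to 12.6) from 8 reads in WT library 1 and 4.08 RPKM (1.11 to 10.4) from 4 reads in WT library 2. There were 2 reads (1.06 RPKM) in KO library 1 and none in KO library 2, where 3 reads would have been 1.78 RPKM. At the WT mean, 9.87 and 8.79 reads would have fallen on Myf5 in the libraries labelled KO. Pooled over libraries, the signal in WT was 9.58 times that in the libraries labelled KO, with a counting interval from 2.13 to 88.1. The fitted log2 fold change of -2.09 (interval -3.48 to -0.70) had an adjusted p of 0.629 by limma. With a pseudocount of 0.1 RPKM in place of 1 it was -3.93, since 1 library has no read.

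The regulators of differentiation separated the WT libraries from each other. Myog (ENSMUSG00000026459; chromosome 1, 134289989 to 134292548, plus strand, 3 exons, coding sequence of 672 bases) had 91.0 RPKM (72.4 to 113) from 82 reads in WT library 1. It had 4.26 RPKM (0.878 to 12.4) from 3 reads in WT library 2, 0.737 RPKM from 1 read in KO library 1 and 1.66 RPKM from 2 reads in KO library 2. WT library 1 thus stood alone, and the counting intervals of the other 3 libraries overlapped. On the log2(RPKM + 1) scale WT library 1 was above WT library 2 by 4.13 for Myog, against 0.25 for Myod1, 0.54 for Myf5 and 1.04 for Pax7. This signed difference was higher for Myog than for 99.4% of all tested genes, a rank that does not cover genes higher in WT library 2. The fold change between groups rested on that library. Pooled reads gave a WT signal 45.2 times that of the libraries labelled KO (counting interval 15.0 to 224). This ratio was 3.64 (0.487 to 27.2) if WT library 1 was left out and 77.7 (25.7 to 385) if WT library 2 was. The fitted log2 fold change was -3.36 (interval -6.48 to -0.23), with an adjusted p of 0.672 by limma. It became -1.29 when WT library 1 was left out and -5.42 when WT library 2 was.

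Myf6 (ENSMUSG00000035923; chromosome 10, 107492853 to 107494737, minus strand, 3 exons) lies 6718 bases upstream of Myf5. It received a single read, in WT library 2, worth 1.68 RPKM. With 0 reads in the other 3 libraries, levels of up to 3.94 RPKM in WT library 1 and of 2.62 and 2.94 RPKM in the libraries labelled KO (3 reads each) were within what a count of 0 allows. None of the 6 members overlaps another gene of the table on either strand.

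The promoter of Myog is shown because it is the textbook site where E-box-binding factors act on another member, and that of Myf5 for comparison. Of the 6 members, 3 were matched in the RefSeq promoter table (GRCm38.p6). The 250 bases before the RefSeq start are printed 5′ to 3′, chr1:134289754-134290003 on the plus strand for Myog and chr10:107486135-107486384 on the minus strand for Myf5, with each match to CANNTG in capitals.
Myog: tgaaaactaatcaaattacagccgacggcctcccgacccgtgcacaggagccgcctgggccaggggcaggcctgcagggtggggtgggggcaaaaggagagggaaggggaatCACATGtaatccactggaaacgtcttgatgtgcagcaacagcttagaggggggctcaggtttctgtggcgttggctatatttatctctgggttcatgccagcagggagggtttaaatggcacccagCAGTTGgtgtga
Myf5: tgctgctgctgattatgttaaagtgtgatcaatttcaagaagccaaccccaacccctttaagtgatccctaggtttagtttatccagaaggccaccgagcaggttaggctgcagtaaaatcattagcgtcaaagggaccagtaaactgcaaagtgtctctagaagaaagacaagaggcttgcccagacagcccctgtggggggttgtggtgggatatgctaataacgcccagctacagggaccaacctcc
The pattern CANNTG reads the same on both strands. It has 2 matches in the Myog window, from 138 to 133 and from 12 to 7 bases before the RefSeq start. That start, 134290004, lies inside the Myog gene as placed above, so the nearer match falls within that gene. The Myf5 window has 0 matches, and 66.2% of 32851 promoter windows of this length hold at least 1. The narrower forms CAGCTG (13.0% of windows) and CAGGTG or its reverse CACCTG (17.2%), which are contained in CANNTG, are in neither window. A match is a description of the letters and does not show binding.

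The Pax factors, at the progenitor end of the lineage, were weakly read per gene length. Pax7 (ENSMUSG00000028736; chromosome 4, 139737062 to 139833528, minus strand, 9 exons, coding sequence of 1515 bases) had 8.49 RPKM (5.73 to 12.1) from 30 reads in WT library 1 and 3.62 RPKM (1.74 to 6.66) from 10 reads in WT library 2. In the libraries labelled KO it had 0.941 RPKM (0.305 to 2.20) from 5 reads and 1.48 RPKM (0.595 to 3.05) from 7 reads. Both KO values were below both WT values, but the counting intervals of WT library 2 and both libraries labelled KO overlapped. At the WT mean, 32.2 and 28.7 reads would have been counted in the libraries labelled KO. The pooled WT signal was 5.32 times that of the libraries labelled KO (counting interval 2.74 to 11.1), 3.03 times without WT library 1 and 7.11 times without WT library 2. The log2 fold change was -1.59 (interval -2.83 to -0.36), with an adjusted p of 0.660 by limma. Pax3 (ENSMUSG00000004872; chromosome 1, 78101267 to 78197134, minus strand, 9 exons), the paralogue that is used mainly in embryonic muscle progenitors, had 2 reads in WT library 1 (0.536 RPKM), 2 in KO library 2 (0.400 RPKM) and none in the other libraries. It was at or under the floor of 3 reads in every library.

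A filter on a mean of at least 1 RPKM let Myod1, Myog, Pax7 and Myf5 into the test and left out Myf6 and Pax3, which are described here by their reads. Of the 4 tested, 0 passed an adjusted p of 0.05 by limma, where 0.106% of all tested genes did in either direction and 0.0968% were lower. By limma-voom on the recovered reads 0 of 3 passed, beside 0.425% of 9179 genes. At an unadjusted p under 0.05 in the limma model, Myf5 (0.0104), Pax7 (0.0195) and Myog (0.0391) were lower, and Myod1 (0.0780) was not past that threshold. The background at this threshold was 7.32% of tested genes in either direction and 4.46% lower. Without WT library 1 the log2 fold changes were -0.90 for Myod1, -1.82 for Myf5, -1.29 for Myog and -1.08 for Pax7, each smaller in size than with all libraries. All 4 had lower RPKM in both libraries labelled KO than in both WT libraries, as did 20.3% of all tested genes, though for Myod1 this did not hold per total reads. Myf5 passed the filter through its WT values alone, so that the count over tested members is given as a description. Scaled to the same read total, which moved the median over every tested gene to 0.50 on the log2 scale, the log2 fold change was -0.42 for Myod1, -2.93 for Myog, -1.18 for Pax7 and -1.76 for Myf5.

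**Figure D2:**
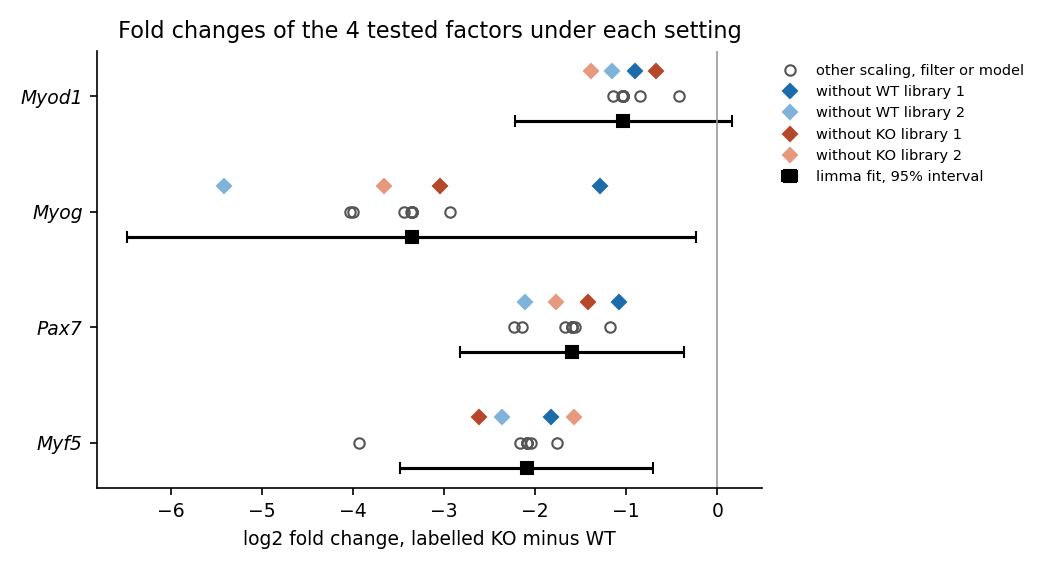
Log2 fold change (labelled KO minus WT) of the 4 tested factors, with the 95% interval of the limma fit (black square), the value under other scalings, filters and models (open circles) and the value without each library (diamonds). All points lie below 0, the interval of Myod1 crosses 0, and Myog moves from -5.42 to -1.29 with the WT library left out.

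Ratios within a library do not depend on how libraries are scaled to each other. The 6 genes summed to 246 and 131 RPKM in WT and to 51.3 and 83.4 RPKM in the libraries labelled KO. Myod1 made up 56.8% of this sum in WT library 1, 89.6% in WT library 2, 94.7% in KO library 1 and 95.8% in KO library 2. Myog made up 36.9%, 3.25%, 1.44% and 1.99% in the same order. Thus, by RPKM, WT library 1 held a mixture of Myod1 and Myog signal, and Myod1 made up most of the signal in the other 3 libraries. The Myod1 share averaged 73.2% ± 23.2 (SD, n = 2) in WT and 95.2% ± 0.772 (SD, n = 2) with the label KO, a difference that shrank to 5.61 percentage points without WT library 1. For the Myog share it was -18.4 points, and -1.54 points without WT library 1. Counted as reads, Myog held 29.4% (interval 24.1 to 35.1) of the 279 reads on the 6 genes in WT library 1 and 2.48% (0.514 to 7.07) of 121 reads in WT library 2. In the libraries labelled KO it held 1.11% (0.0281 to 6.04) of 90 reads and 1.53% (0.185 to 5.41) of 131 reads, so that these intervals overlap that of WT library 2. Myod1 held 56.3% and 85.1% of these reads in WT against 91.1% and 91.6%, and Pax7 10.8% and 8.26% against 5.56% and 5.34%.

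**Figure D3:**
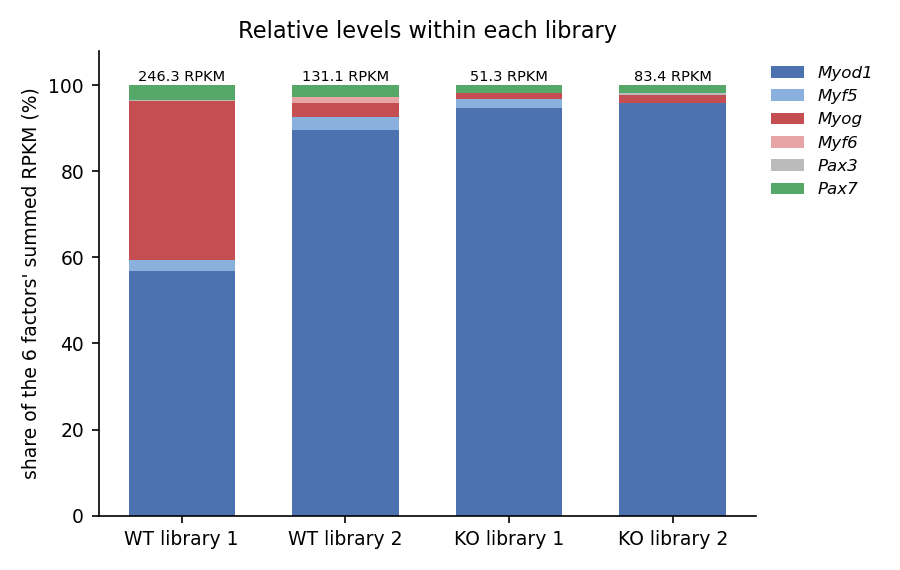
Share (%) of each of the 6 factors in their summed RPKM, as stacked bars for the 4 libraries, with the sum written above each bar. Myod1 takes 56.8% in WT library 1 and between 89.6% and 95.8% in the others.

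Ordered by stage, Pax3 and Pax7 together made up 3.67% and 2.76% of the sum in WT against 1.83% and 2.25% with the label KO. Myf5 and Myod1 made up 59.4% and 92.7% against 96.7% and 95.8%, and Myog and Myf6 36.9% and 4.53% against 1.44% and 1.99%. By RPKM the groups did not overlap for any pair, but the 3 shares add up to the whole sum and are not independent. Counted as reads, the intervals of WT library 2 and of the libraries labelled KO overlapped for all 3 pairs. In WT library 2 and KO library 2 they were 4.03% to 14.7% and 3.19% to 12.6% for the progenitor pair, 81.3% to 93.5% and 85.5% to 95.7% for the commitment pair, and 0.908% to 8.25% and 0.185% to 5.41% for the late pair. The ratio of Pax7 to Myod1 was 0.0607 and 0.0308 in WT against 0.0194 and 0.0185 with the label KO. On the log2 scale it averaged -4.53 ± 0.69 (SD, n = 2) and -5.72 ± 0.05 (SD, n = 2), a difference of -1.19 that was -0.70 without WT library 1. The log2 ratio of Myog to Myod1 averaged -2.70 ± 2.94 (SD, n = 2) and -5.82 ± 0.32 (SD, n = 2), a difference of -3.11 that was -1.03 without WT library 1. Both ratios and the Myod1, Myog and Pax7 shares had p = 0.333 in a two-sided exact permutation test, which cannot go lower with 2 against 2 libraries.

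The order below Myod1 also differed among libraries. In WT library 1 it was Myog, Pax7, Myf5 and Pax3, with Pax7 and Myf5 inside each other's counting interval. In WT library 2, Myog, Myf5, Pax7 and Myf6 lay between 1.68 and 4.26 RPKM and their intervals overlapped. In the libraries labelled KO the genes below Myod1 had 1.66 RPKM or less. Set per coding length in place of gene length, which favours Pax7 for its long untranslated parts, Pax7 made up 6.22% and 5.25% of the sum in WT against 3.54% and 3.43% with the label KO. It then ranked above Myog in WT library 2, where Myog made up 3.55%.

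The partners and inhibitors of these factors were examined next. MyoD and its relatives bind DNA together with E proteins (Tcf3, Tcf4, Tcf12) and act with Mef2 and chromatin factors. Of 28 such genes 23 were tested, with 19 lower, 4 higher and a median log2 fold change of -0.49, beside 50.0% of all tested genes lower and a median of 0.00. At an unadjusted p under 0.05 by limma 1 was lower (Tead2, a TEA-domain factor, -1.18), a share of 4.35% that lay near the 4.46% of all tested genes, and 0 were higher, and 0 passed the adjusted threshold. The median was -0.28 when WT library 1 was left out and -0.30 when KO library 1 was, and 4 of the 23 passed the filter through WT alone. Scaled to the same read total the median of this list was 0.01, beside 0.48 for the same set of all tested genes. Mef2d, which acts with MyoD on muscle promoters, had 81 and 41 reads in WT against 39 and 64 and a log2 fold change of -0.82 (adjusted p 0.697 by limma). The E protein gene Tcf3 had 12.4 RPKM on average in WT and 8.55 RPKM with the label KO, and neither it nor Smarca4 (19.9 and 21.0 RPKM), a chromatin remodeller, nor Carm1 (12.5 and 7.95 RPKM), an arginine methyltransferase, passed.

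The inhibitors included the Id proteins, which hold E proteins away from MyoD. Of 19 genes 16 were tested, with 13 lower (81.2%, beside 50.0% of all tested genes), 3 higher and a median of -0.32, and 2 of the 16 passed the filter through WT alone. Scaled to the same read total this median was 0.24, still below the 0.48 of all tested genes. Id3 had 282 RPKM on average in WT and 270 RPKM in the libraries labelled KO (log2 fold change -0.05, adjusted p 0.980 by limma), and was thus read more strongly per length than Myod1 in both groups. Id1, a further Id gene, had 66 and 71 reads in WT against 100 and 89, but a log2 fold change of -0.22 in RPKM (adjusted p 0.885 by limma), because the libraries labelled KO were scaled by larger sizes. Twist1 and Snai1, repressors known from mesenchymal cells, had log2 fold changes of -0.77 and -0.41 and did not pass. Id2, with 31 and 16 reads in WT against 13 and 19, had a log2 fold change of -1.09 and was the single inhibitor at an unadjusted p under 0.05 by limma (6.25%, beside 4.46% of all tested genes lower). Its adjusted p was 0.672 by limma.

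Genes that mark the stem cell came next, since Pax7 stands at that end of the lineage. Of 25 genes 22 were tested, with 15 lower, 7 higher and a median of -0.26. With WT library 1, WT library 2 or KO library 1 left out this median was -0.09, -0.59 or -0.41. Scaled to the same read total it was 0.32, still below the 0.48 of all tested genes. Itgb1, the beta1 integrin shared by many cell types, had 67.9 RPKM on average in WT and 138 RPKM with the label KO, the heparan sulfate proteoglycan gene Sdc4 92.8 and 95.1 RPKM, and the chemokine receptor gene Cxcr4 had 44.0 and 74.0 RPKM against 63.4 and 42.5 RPKM, with overlapping groups. Gas1 had 153 reads in WT library 1 and between 25 and 35 in the other 3 libraries. At an unadjusted p under 0.05 by limma 2 were lower (9.09%, beside 4.46% of all tested genes) and 0 higher. These were Fgfr4, an FGF receptor of myogenic cells, with 66 and 16 reads in WT against 6 and 9, and the imprinted gene Peg3, with 109 and 30 against 39 and 21. Neither passed the adjusted threshold (adjusted p 0.604 and 0.672 by limma).

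Differentiation genes, which lie downstream of MyoD and myogenin, followed. Of 46 genes 24 were tested, with 20 lower, 4 higher and a median of -1.08, which was -0.61 without WT library 1. At an unadjusted p under 0.05 by limma 7 were lower and 0 higher (29.2%, beside 4.46% of all tested genes), and 0 passed the adjusted threshold. Of the 24, 7 reached the filter through WT alone, with a KO mean below 1 RPKM, among them Chrng and Tnnt3 of the genes called, so the share is a description. The 7 genes at an unadjusted p under 0.05 by limma comprised 3 subunits of the acetylcholine receptor of the neuromuscular junction, and Actc1, Des, Mylpf and Tnnt3 of the muscle cytoskeleton. Chrna1 had 46 and 33 reads in WT against 9 and 16, Chrnb1 8 and 11 against 3 and 4, and Chrng, the fetal gamma subunit, 18 and 6 against 1 and 0. Their log2 fold changes were -2.06, -1.61 and -2.36, with adjusted p from 0.506 to 0.629 by limma. Actc1, the cardiac alpha-actin that differentiating skeletal muscle also makes, had 62 reads in WT library 1 and 5, 3 and 4 in the others. Des had 104 and 71 reads against 47 and 65. The gene for Mylpf, a fast myosin light chain, had 12 and 7 reads against 4 and 5, and the fast troponin gene Tnnt3 3 and 4 against 1 and 1. The most strongly read members of the list, Cryab (399 RPKM on average in WT and 505 RPKM in the libraries labelled KO), a small heat shock protein, and Cdkn1a (129 and 132 RPKM), the p21 inhibitor of the cell cycle, are not particular to muscle and had log2 fold changes of 0.43 and 0.02. The skeletal alpha-actin gene Acta1 had 119 reads in WT library 1 and between 30 and 42 in the others.

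The WT libraries were also set against each other. WT library 1 was above WT library 2 for 18 of 24 tested differentiation genes (75.0%, beside 48.8% of all tested genes), with a median difference of 0.68 on the log2(RPKM + 1) scale, and WT library 1 was the highest of the 4 libraries for 16 of them (66.7%, beside 30.7%). It was also above WT library 2 for 78.3% of the partners, 63.6% of the stem cell genes, 62.5% of the inhibitors, 76.9% of the fibroblast markers and 70.0% of the pericyte, smooth muscle and Schwann cell markers, so that this was not particular to the differentiation genes. The immune markers (0 of 5 tested) and the proliferation genes lay the other way. Of the latter, WT library 1 was above WT library 2 for 2 of 24 tested, and the summed RPKM of the 25 listed genes was 96.2 in WT library 1, 222 in WT library 2, 281 in KO library 1 and 250.2 in KO library 2. The library with the most Myog signal was thus also that with the least proliferation signal. Between groups 23 of 24 proliferation genes (95.8%, beside 50.0% of all tested genes) were higher in the libraries labelled KO, with a median of 0.88. This median was 0.40 when WT library 1 was left out and 1.31 when WT library 2 was. Scaled to the same read total it was 1.44, beside 0.48 for all tested genes. Of these, 3 had an unadjusted p under 0.05 by limma, namely Mcm4, Tpx2 and Ccna2 (12.5%, beside 2.86% of all tested genes higher), and 0 passed the adjusted threshold. Ccna2 was among 3 genes of this list that reached the filter through the libraries labelled KO alone. Mcm4, a subunit of the replicative helicase, had 14 and 15 reads in WT against 66 and 50. The most strongly read genes of the list did not pass. Pcna, the sliding clamp of replication, had 24 and 52 reads in WT against 62 and 81, and the cyclin D gene Ccnd1 15 and 47 against 75 and 82. Rrm2, a subunit of ribonucleotide reductase, had 5 and 27 reads against 48 and 48, and Mcm6, of the same helicase as Mcm4, 16 and 40 against 83 and 76. In RPKM their log2 fold changes were 0.31, 0.79, 1.19 and 0.88.

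**Figure D4:**
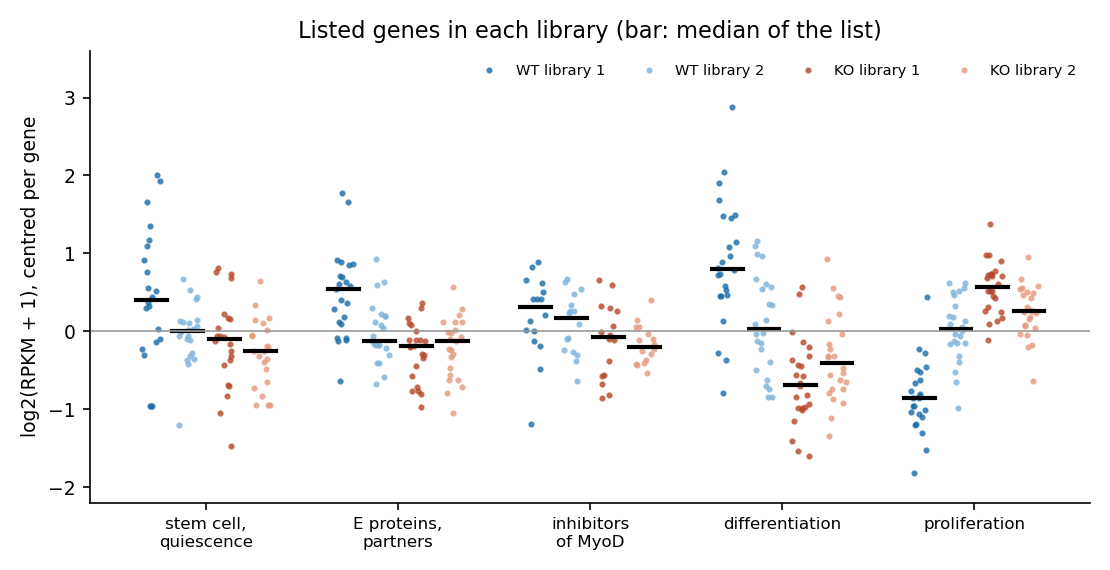
Tested genes of the 5 lists in the 4 libraries, as log2(RPKM + 1) centred on each gene's own mean; points are genes and bars the list median. The median of the differentiation genes is highest, and that of the proliferation genes lowest, in WT library 1.

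Genes with a profile like that of a member over the 4 libraries were found by Euclidean distance between centred log2(RPKM + 1) values, among 8729 protein-coding genes with at least 20 reads. Myf5, Myf6 and Pax3 have too few reads for such a search. For Myog they were Actc1 (distance 1.02), Fgfr4 (2.03), Actn3 (2.08), Cxcl14 (2.10) and Nr2f6 (2.21). Actn3, the alpha-actinin of fast fibres, had 28 reads in WT library 1 and 4, 3 and 3 in the others. Cxcl14, a secreted chemokine, had 102 reads in WT library 1 and 5, 17 and 10 in the others. Nr2f6, an orphan nuclear receptor, had 25 reads and 1, 1 and 5. The 4 values of Myog spread further than those of these neighbours. The genes near Myod1 included Camkk2 (0.0475), Zkscan17 (0.0925), Cdr2l (0.0938) and Pabpn1 (0.0940). Of these, Camkk2 and Pabpn1 code for a calmodulin-dependent kinase kinase and a nuclear poly(A)-binding protein, and had between 3 and 17 reads in a library. For Pax7 they were Fam102a (0.123), Pkp4 (0.234), Nfic (0.250), Trim8 (0.281) and Dexi (0.283). Nfic, a transcription factor of the NFI family, was read best, with 189 and 75 reads in WT against 69 and 67. The distance is a description over 4 libraries, and at such read numbers part of each profile is counting error.

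**Figure D5:**
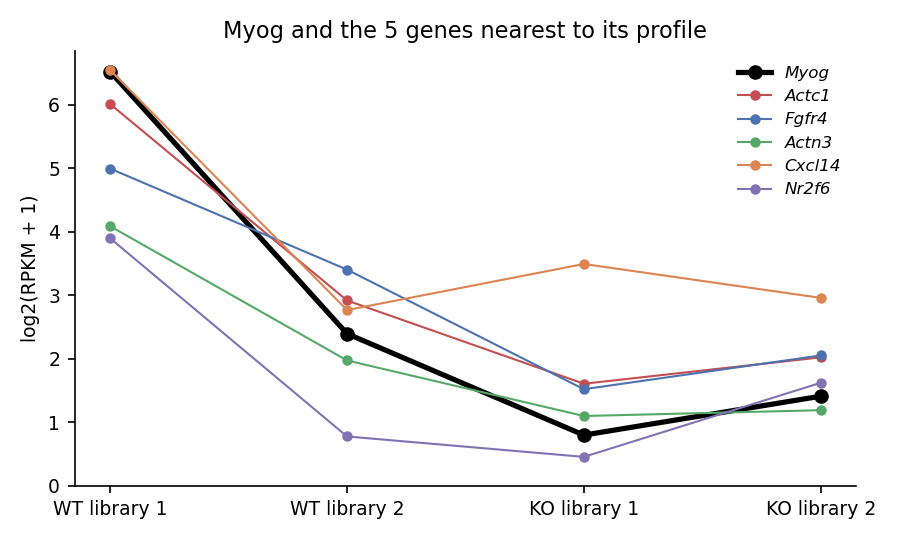
log2(RPKM + 1) of Myog and of the 5 genes nearest to its profile in the 4 libraries; a line joins the values of 1 gene. All 6 genes are highest in WT library 1, where Myog had 82 reads, Actc1 62 and Cxcl14 102.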

How the data were processed

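Ribosome-protected fragments were measured in 4 libraries, with groups and replicate numbers from the sample titles. Per the study's methods and the labels, the authors removed low-quality, rRNA and tRNA reads, mapped with TopHat2 to mm10 with an Ensembl annotation and counted with HTSeq. The strand rule and tool versions are not given in the sources used here. The deposited values are RPKM. Value times gene length was a whole multiple of 1 step (within 0.01 read) for 100% of values in each library, so reads were recovered. The size used for scaling by the authors, 602863 and 471136 (WT) and 906990 and 807705 (KO), is not the read total. Gene positions equal those of GENCODE M21 (GRCm38), which gave exons and coding lengths.

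limma 3.58.1 (R 4.3.3; lmFit, eBayes with trend=TRUE) was run on log2(RPKM + 1), which understates changes of weak genes, for genes averaging 1 RPKM or more, with Benjamini-Hochberg adjustment over all tested genes. Shares and ratios were compared with an exact permutation test (scipy 1.17.1). The fit was tested on simulated data, with changes planted only in genes with more reads than Myf5, Myog or Pax7 have here. Alternatives were another pseudocount, filter, scaling or variance model, a replicate block, limma-voom on recovered reads (at least 20), coding lengths, and each library left out. The named genes were the members, Eif5a, the 5 nearest profiles (1 item is not reported here), and from each pathway list the 4 most strongly read genes and those at an unadjusted p under 0.05. The members and lists were chosen with earlier results of these data known.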

Additional observations from a re-analysis of the deposited data

How the results depend on the processing

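The 4 tested factors stayed above an adjusted p of 0.05 by limma in every alternative run, and all their fold changes stayed below 0. The adjusted p ranged from 0.403 to 0.944 for Myod1, from 0.289 to 0.944 for Myf5, from 0.244 to 0.944 for Myog and from 0.290 to 0.944 for Pax7. With a library left out, when the lone library of a group is assumed to vary like the other group, the log2 fold change lay between -1.38 and -0.68 for Myod1, between -2.61 and -1.57 for Myf5, between -5.42 and -1.29 for Myog and between -2.11 and -1.08 for Pax7. By limma-voom Myod1 was at -1.04 and Pax7 at -2.23, both with an unadjusted p under 0.05, while Myf5 had too few reads to be tested. With a minimum mean of 5 RPKM, Pax7 and Myf5 were not tested, and 1 member had an unadjusted p under 0.05 by limma in place of 3. Of all tested genes, 9.16% did so in either direction with this filter, against 7.32% in the main fit. The same count was 4 of 6 tested with every gene above 0, where Myod1 was added, beside 4.94% of all tested genes in either direction. It was 1 of 4 with libraries scaled to the same read total, beside 16.3% (169 genes lower and 1689 higher). With trend=FALSE it was 2 of 4, beside 6.88%, and by limma-voom 2 of 3 tested, beside 10.1%. With a library left out, a group holds a lone library, so no count is given for those fits. With a pseudocount of 0.1 the log2 fold change was -3.93 for Myf5, -4.04 for Myog and -2.14 for Pax7. Myf6 and Pax3 have no meaningful fold change, since the pseudocount and single reads set their differences on the log2(RPKM + 1) scale. That of Myf6, -0.71 from 1 read, was -2.08 with a pseudocount of 0.1 and between -1.42 and 0.00 with a library left out, and that of Pax3, -0.07, lay between -0.38 and 0.24. The cause of the other shifts was not tested.

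Samples of the 2 groups share only a replicate number. Across 11363 genes, the correlation between deviations of libraries with the same number was 0.0575. With the replicate block the log2 fold changes were those given, -1.03 for Myod1, -2.09 for Myf5, -3.36 for Myog and -1.59 for Pax7. With it 3 members had an unadjusted p under 0.05 by limma, beside 7.28% of all tested genes in either direction, and no call changed. The shares and ratios kept their direction with reads in place of RPKM, per coding length, with 0.5 read added to both genes of a ratio and without each library. Depth limits Myf5, Myf6 and Pax3 most, with 14, 1 and 4 reads in all 4 libraries together.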
